A study of Mus musculus with 4 samples.

Results

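The islet endocrine cells of the mouse pancreas were taken here as the barcodes of a single-cell RNA-seq study in which hormone transcripts made up a large share of the RNA, whatever tissue they lay in. A barcode was counted when it held at least 500 unique molecular identifiers (UMIs, the count of captured mRNA molecules), at least 250 genes and at most 20% mitochondrial UMIs. At least 5% of its UMIs had to come from the 7 hormone genes Ins1, Ins2, Gcg, Sst, Ppy, Iapp and Pyy. It could hold at most 2 UMIs of the duct genes Cldn3, Ambp and Dcdc2a together and at most 1 of the leukocyte gene Ptprc. Of 44162 barcodes that passed the depth filters, 81 met this rule (0.183%).

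The 4 libraries, 1 per group, were a KPC tumour treated with AF12198, a control KPC tumour given saline, a suture-ligated pancreas and a normal pancreas, all from mice. KPC cells are a mouse line of pancreatic ductal adenocarcinoma, placed into a pancreas whose duct had been tied off at the middle of the organ, so both tumours shared the ligation with the ligated pancreas. AF12198 is a small peptide used as a blocker of the interleukin-1 receptor IL1R1. It was given into the abdominal cavity every week, with harvest at 4 weeks. Whether it blocked the mouse receptor in these animals was not tested here. The labels used here state neither strain and age nor whether tissue of several animals was pooled, and the normal pancreas lacked ligation, tumour and injections alike. With 1 library per group no difference has a replicate check and no p-value is given. Intervals are 95%, exact, and cover counting error only.

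Islets are small clusters of hormone cells scattered through the enzyme-making pancreas. Beta cells make insulin, encoded in mice by Ins1 and the closely similar Ins2, and release amylin (Iapp) with it. Alpha cells make glucagon (Gcg), which raises blood glucose, delta cells make somatostatin (Sst), which restrains the others, and PP cells make pancreatic polypeptide (Ppy). Peptide YY (Pyy) is found in several islet cell types. All pack their peptides into dense-core granules, whose matrix proteins are granins such as Chga, Chgb and Scg2 and whose convertases Pcsk1 and Pcsk2 cut the prohormones. IL1R1 is the signalling receptor for interleukin-1, a cytokine to which beta cells are known to respond.

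The rule found 7 barcodes in the AF12198-treated tumour, 1 in the control tumour, 4 in the ligated pancreas and 69 in the normal pancreas. As a share of kept barcodes this was 0.0352% (0.0142 to 0.0726) of 19868 with AF12198 and 0.00467% (0.000118 to 0.0260) of 21398 in the control tumour. It was 0.356% (0.0970 to 0.909) of 1124 in the ligated pancreas and 3.89% (3.04 to 4.90) of 1772 in the normal pancreas. The AF12198 and control tumour intervals overlap, while that of the normal pancreas overlaps no other. Sorted by their most abundant hormone, with Ins1 and Ins2 summed, 6 of the AF12198 barcodes were led by insulin and 1 by Iapp. The control tumour barcode was led by insulin, 3 of the 4 in the ligated pancreas by Gcg and the other by insulin. In the normal pancreas 68 were led by insulin and 1 by Gcg. No barcode was led by Sst, Ppy or Pyy.

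The label was then checked with genes that the rule did not use, and it failed for most of the normal pancreas. A list of 26 granule and exocytosis genes gave 12 to 964 UMIs in each AF12198 barcode, 428 in the control tumour barcode and 51 to 852 in each ligated barcode. Among the 69 normal barcodes it gave 53 to 1235 UMIs in 8 and 0 to 5 UMIs in the other 61, of which 34 held none, and no normal barcode lay between 5 and 53. A split at 10 UMIs, chosen after these values had been seen, left 20 granule-rich barcodes: 7 with AF12198, 1 in the control tumour, 4 in the ligated pancreas and 8 in the normal pancreas. The granule-rich share of the normal pancreas was 0.451% (0.195 to 0.888), which overlaps that of the ligated pancreas. All of the 61 granule-poor barcodes lay in the normal pancreas, so its high count of members is a count of these.

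The granule-poor barcodes carried hormone RNA together with RNA of several other cell types. Each held 500 to 952 UMIs, at a median of 347 genes, and a median hormone share of 6.28%. Acinar markers, digestive-enzyme genes, stood at 30568 CPM (the count as a share of all UMIs, on the customary CPM scale) in them, against 762 in the granule-rich normal barcodes. Endothelial markers stood at 3341 against 34.0, duct markers at 8944 against 191, and the ribosomal-RNA-rich locus Gm42418 at 17.7% against 2.76% of UMIs. The 602 other normal barcodes under 1000 UMIs held much the same mixture, with acinar markers at 21426, duct markers at 8635, endothelial markers at 2869 and Gm42418 at 19.2%. These values bear on the label directly, and the 61 are called by the rule here, not islet cells.

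Hormone RNA outside endocrine cells was most abundant in the normal pancreas and in its smallest barcodes. With members left out, the median hormone share there was 1.83% in 602 barcodes under 1000 UMIs and 0.0178% in 1101 of 1000 or more. Over all kept normal barcodes, members included, it was 2.68% in 221 of 500 to 600 UMIs, of which 29 were members. It was 1.36% in 165 of 800 to 1000 and 0.447% in 306 of 1000 to 2000. In 543 barcodes of 5000 UMIs or more it was 0.00794%. Vessel cells, which should lack the gene, held Ins2 at 4.73 CPM with AF12198, 2.06 in the control tumour, 47.7 in the ligated pancreas and 747 in the normal pancreas. The threshold had no gap to fall into in the normal library: 59 kept barcodes lay between 4 and 5% hormone and 26 between 5 and 6%. The nearest outside were at 4.98, 4.96 and 4.94% and the nearest inside at 5.00, 5.03 and 5.06%. In the other libraries the highest share under the threshold was 2.48% with AF12198, 2.64% in the control tumour and 0.976% in the ligated pancreas, while barcodes over it that the caps kept out reached 22.3% with AF12198, 56.1% in the control tumour and 5.99% in the ligated pancreas.

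**Figure D1:**
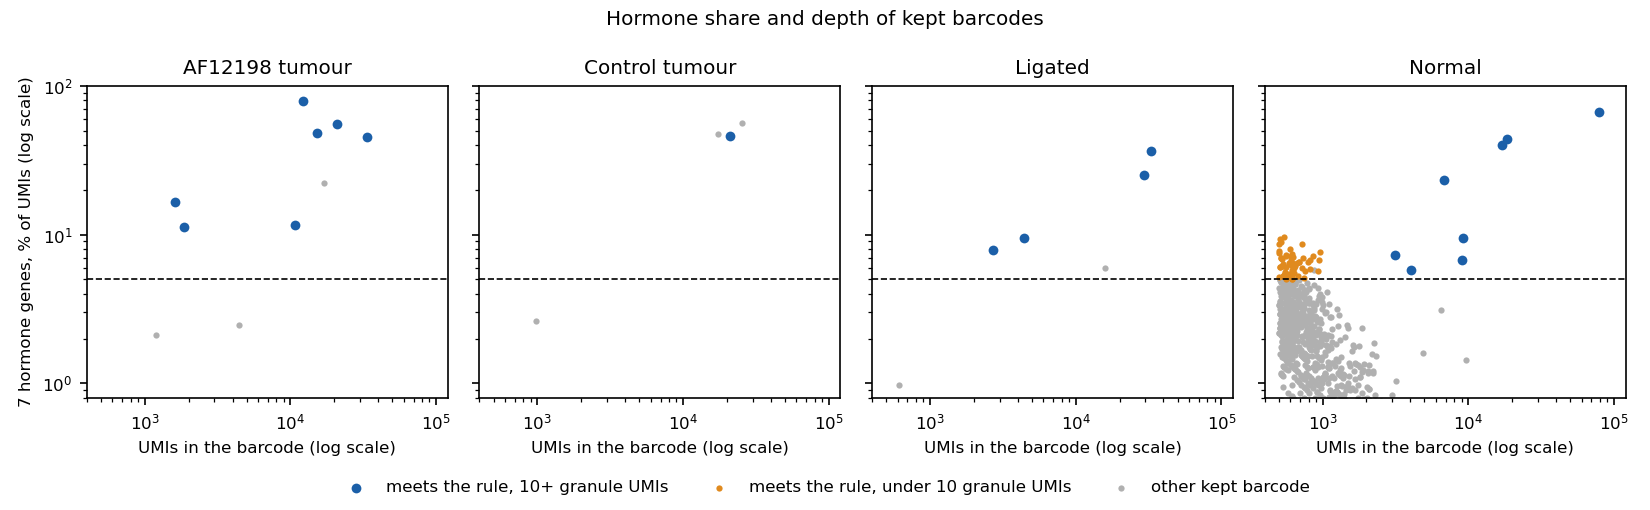
Share of UMIs from the 7 hormone genes against UMI total, both on log axes, for barcodes that passed the depth filters in the AF12198-treated tumour, control tumour, ligated and normal pancreas. Barcodes with a hormone share below the lower end of the axis are not shown. Blue points are the 20 granule-rich members, orange the 61 granule-poor ones, grey other barcodes, and the dashed line is the 5% threshold. The orange points form the upper edge of a cloud of small normal barcodes, while every blue point of the normal pancreas lies at a higher UMI total.

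The caps on duct and leukocyte genes removed 5 barcodes over 5% hormone, 4 of which were rich in hormone and granule UMIs. A barcode of 17007 UMIs with AF12198 held 2270 Ins2, 338 Iapp and 545 granule UMIs, and was removed for 4 duct UMIs. In the control tumour a barcode of 25572 UMIs held 8370 Ins2 and 357 granule UMIs with 2 Ptprc, and a barcode of 17304 UMIs held 4464 Ins2 and 186 granule UMIs with 5 Ptprc. Without the caps the control tumour would have 3 barcodes in place of 1 and the AF12198 tumour 8 in place of 7. The ligated barcode, of 15838 UMIs, was led by Pyy (707 UMIs), with 158 Iapp, 84 Ppy and 12 duct UMIs, and was the only barcode over 5% hormone, before the caps, that another hormone than insulin, Gcg or Iapp led.

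The 15 granule-rich barcodes led by insulin spanned a wide range of hormone load. In the AF12198 tumour the barcodes of 33637, 20925, 15113, 12124, 10810 and 1605 UMIs held hormone shares of 45.4, 55.2, 48.5, 79.0, 11.7 and 16.6%. The control tumour barcode, of 21128 UMIs, stood at 46.1%, and the ligated one, of 2720 UMIs, at 7.83%. In the normal pancreas the barcodes of 79262, 18511, 16941, 9162, 6766, 4058 and 3161 UMIs stood at 66.3, 44.0, 40.4, 9.45, 23.4, 5.82 and 7.31%. The groups overlap throughout, and in the normal pancreas the 3 deepest barcodes held the highest shares. Since the rule set a floor on this share, it is a description.

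Ins2 UMIs outnumbered Ins1 UMIs in most but not all of them. Ins1 made up 45.1, 17.3, 33.1, 33.1, 85.6 and 30.8% of insulin UMIs in the 6 AF12198 barcodes, in the order above. It made up 49.1% in the control tumour barcode, 26.3% in the ligated one, and 31.9, 24.1, 25.5, 38.7, 26.9, 30.3 and 47.0% in the normal ones. The AF12198 barcode of 10810 UMIs stands alone, with 647 Ins1 and 109 Ins2 UMIs, and its Iapp (418 UMIs) exceeded its Ins2. The 2 genes are near-identical in their coding sequence, and how the authors' counting shared reads between them is not stated. Iapp followed insulin at 14 to 1749 UMIs with AF12198, 922 in the control tumour, 19 in the ligated and 16 to 2032 in the normal insulin-led barcodes. The barcode led by Iapp, in the AF12198 tumour, held 179 Iapp UMIs of 1871 with 14 Ins1 and 18 Ins2, and its mitochondrial share, 13.8%, was the highest of the 20.

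Some barcodes held more than 1 islet hormone. The largest AF12198 barcode held 416 Sst, 386 Ppy and 248 Pyy UMIs besides 5629 of Ins1 and 6854 of Ins2, and that of 20925 UMIs held 124 Pyy. In the normal pancreas the barcode of 6766 UMIs held 148 Sst, 52 Ppy and 36 Pyy, and that of 9162 UMIs held 63 Sst and 38 Pyy. The 403 AF12198 and 245 normal vessel cells held 0 and 1 Sst UMIs in all. Single cells making several hormones and 2 cells in 1 droplet cannot be told apart here, since no doublet caller was run.

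**Figure D2:**
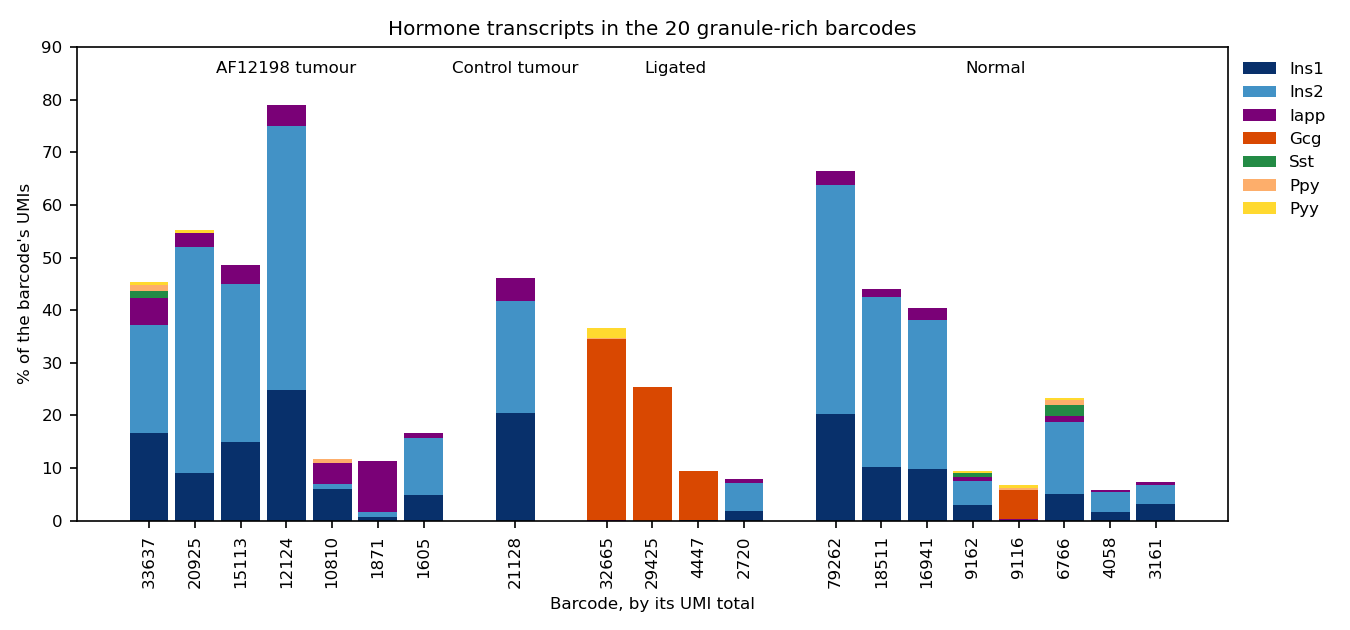
Share of each barcode's UMIs, in percent, that came from each of the 7 hormone genes in the 20 granule-rich barcodes, ordered by library and UMI total. Blue shades (Ins1 and Ins2) dominate with AF12198, in the control tumour and in the normal pancreas, orange (Gcg) in 3 of 4 ligated barcodes and 1 normal one, and the AF12198 barcode of 1871 UMIs is mostly Iapp.

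The 4 barcodes led by Gcg held glucagon RNA with almost no insulin RNA. Gcg gave 11236, 7449 and 415 UMIs in the ligated barcodes of 32665, 29425 and 4447 UMIs, and 508 in the normal barcode of 9116 UMIs. The same gene gave 0 in all 7 AF12198 barcodes, 0 in the control tumour barcode, and at most 3 in an insulin-led normal one. In the ligated pancreas the 3 Gcg-led barcodes held 3, 0 and 4 insulin UMIs, and the normal one 18. The largest ligated one also held 626 Pyy and 44 Ppy UMIs. With 4 barcodes in the ligated pancreas and 8 granule-rich ones in the normal pancreas, the make-up of the islets there is not measured by these counts.

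Some alpha cell genes that the rule did not use split the barcodes the same way. Irx1 gave 2, 9 and 0 UMIs in the 3 ligated Gcg-led barcodes and 3 in the normal one, and Irx2, a homeobox factor like Irx1 and typical of alpha cells, gave 9, 9 and 0, and 3. Both genes were at 0 in each of the 15 insulin-led barcodes, among them the deepest of the 20. Not every gene of the alpha cell list parted them: Peg3 stood at 1685 CPM in the Gcg-led barcodes and 2711 CPM in the insulin-led ones, over the UMIs outside the 7 hormone genes. The summed list of 16 genes ran from 8937 to 42309 CPM in the Gcg-led barcodes and from 0 to 13993 CPM in the insulin-led ones, so the kinds overlap in it. Of the 4 Gcg-led barcodes 3 lay in the ligated pancreas, against 1 of the 15 insulin-led ones, so the kinds also differed in library.

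Ttr, encoding transthyretin, gave 661, 225 and 3 UMIs in the ligated Gcg-led barcodes and 42 in the normal one, a pooled level of 16867 CPM (15801 to 17986) on that scale, which is used from here on. In the 15 insulin-led barcodes it was 891 CPM (736 to 1068) on the same scale. The shallow ligated barcode of 4447 UMIs carried the Gcg but little Ttr and none of Irx1 and Irx2.

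Some beta cell genes stood on the other side. Mafa, a factor that drives insulin transcription in mature beta cells, was found in 10 of 15 insulin-led barcodes and in 0 of the 4 led by Gcg. Slc2a2, the glucose transporter GLUT2 of rodent beta cells, was found in 6 of 15, and Ucn3, a peptide of mature mouse beta cells, in 7. Glp1r, the incretin receptor, and Prlr, the prolactin receptor, were found in 12 each. All of these were at 0 in every Gcg-led barcode. So was Pcsk1, the convertase that begins proinsulin cleavage, which was found in 10 of the 15 insulin-led ones. Pcsk1 belongs to the granule list by which the barcodes were chosen, so its presence is a description. Other genes of the beta cell list were present there. Slc30a8 was found in all 4 Gcg-led barcodes, with 45 of their 55 UMIs of this list, at 815 CPM against 914 in the insulin-led ones. Nkx6-1 was found in 3 of the 4 Gcg-led barcodes, at 3 UMIs in all, G6pc2 and Igf1r in 2 each and Ero1lb in 1. The summed list of 19 genes ran from 637 to 2234 CPM in the Gcg-led barcodes and from 579 to 17815 CPM in the insulin-led ones, so the kinds overlap in it too.

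Genes of both kinds were shared. Slc30a8, the zinc transporter of the granule, gave 23, 9 and 7 UMIs in the ligated Gcg-led barcodes and 6 in the normal one, and Abcc8, the sulphonylurea receptor of the potassium channel, 15, 14, 1 and 15. Pcsk2, which cuts proglucagon and proinsulin, gave 178, 159, 35 and 21, and the pan-endocrine factors Pax6 and Isl1 were present in all 4. Abcc8 and Pcsk2 belong to the granule list by which these barcodes were chosen, so their presence is a description. The insulin-led barcode of the ligated pancreas was of 2720 UMIs and held 9 Ero1lb, 4 Prlr, 3 Pcsk1 and 2 Mafa UMIs.

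**Figure D3:**
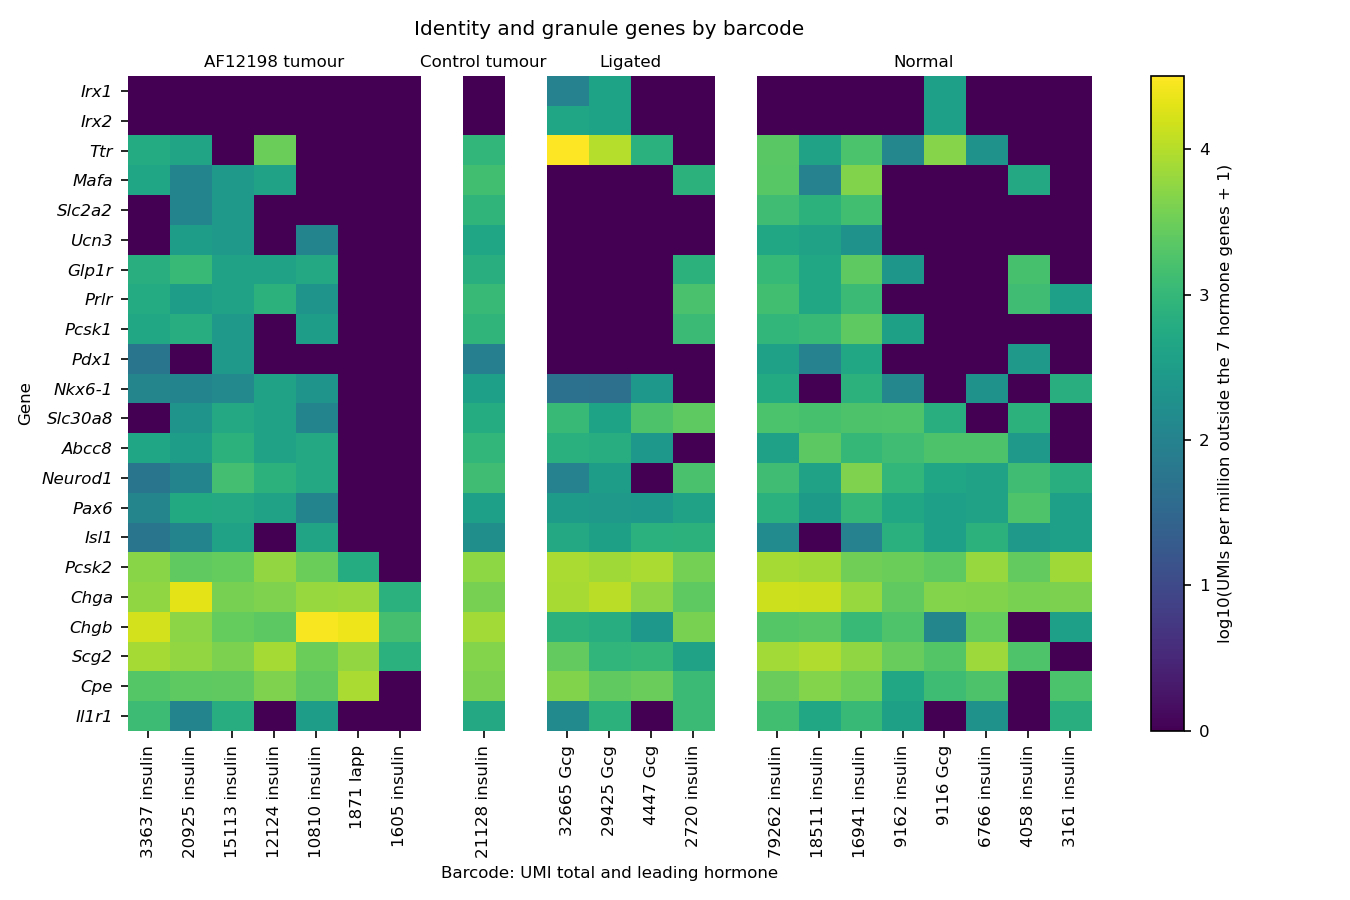
Level of 22 genes in each of the 20 granule-rich barcodes, as log10 of CPM outside the 7 hormone genes plus 1, with columns grouped by library and named by UMI total and leading hormone. Irx1 and Irx2 light up in 3 of the 4 Gcg-led columns only, and Ttr in all 4 and in 9 of the 15 insulin-led ones. Mafa to Pcsk1 light up in 6 to 12 of the insulin-led columns only, and the granule genes from Pcsk2 to Cpe in nearly all. The granule genes, Pcsk1 and Abcc8 belong to the list by which the 20 barcodes were chosen, so their presence is a description.

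The regions before the start of 3 of these hormone genes are shown because the genes mark the insulin-led and Gcg-led kinds of barcode. They are the 250 bases upstream of the RefSeq start on GRCm38.p6, 5′ to 3′ on the gene's own strand. Ins1 lies at chr19:52264047-52264296 on the plus strand, Iapp at chr6:142298175-142298424 on the plus strand and Gcg at chr2:62483654-62483903 on the minus strand. Capitals mark CATCTG or its reverse complement CAGATG, a form of the E-box that basic helix-loop-helix factors such as NEUROD1 can bind, and TATAAA or its reverse complement TTTATA.
Ins1: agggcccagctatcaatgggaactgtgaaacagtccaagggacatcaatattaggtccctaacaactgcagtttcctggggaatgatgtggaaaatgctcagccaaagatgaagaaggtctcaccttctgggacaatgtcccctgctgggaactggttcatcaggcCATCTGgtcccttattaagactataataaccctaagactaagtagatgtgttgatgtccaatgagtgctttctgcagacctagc
Iapp: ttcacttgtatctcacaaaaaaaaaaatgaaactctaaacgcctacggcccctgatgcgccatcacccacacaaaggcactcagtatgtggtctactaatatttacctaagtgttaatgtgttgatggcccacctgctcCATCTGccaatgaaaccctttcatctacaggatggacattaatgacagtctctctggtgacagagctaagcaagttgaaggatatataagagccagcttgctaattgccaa
Gcg: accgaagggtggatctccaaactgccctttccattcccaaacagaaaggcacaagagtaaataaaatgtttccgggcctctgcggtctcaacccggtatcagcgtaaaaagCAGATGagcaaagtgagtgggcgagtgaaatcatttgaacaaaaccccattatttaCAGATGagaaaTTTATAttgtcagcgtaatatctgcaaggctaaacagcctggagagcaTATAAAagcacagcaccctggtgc
The E-box letters begin 84 bases upstream of the Ins1 start, 111 upstream of that of Iapp and 139 and 83 upstream of that of Gcg, and the TATA letters 72 and 24 upstream of Gcg. No match overlaps another. The letters were chosen after the sequences had been read, and 14.4% of all 32851 mouse windows of this length hold the E-box letters and 12.4% the TATA letters, so a match is a description.

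UMIs of the interleukin-1 receptor transcript were found in 14 of the 20 granule-rich barcodes, in some of them only 1 to 3. Il1r1 gave 22, 1, 5, 0, 3, 0 and 0 UMIs in the AF12198 barcodes from the deepest to the shallowest and 6 in the control tumour barcode. It gave 3, 17, 0 and 3 in the ligated barcodes and 37, 5, 11, 3, 0, 1, 0 and 2 in the normal ones. A UMI of Il1r1 was found in 12 of the 15 insulin-led barcodes and 2 of the 4 Gcg-led ones, those with only 1 to 3 included. Pooled levels were 760 (618 to 926) and 362 (221 to 560) CPM outside the hormone genes. Of the 99 insulin-led UMIs 37 lay in 1 barcode, and of the 20 Gcg-led ones 17 did, so these levels do not set the kinds apart. On the same scale, leukocytes (barcodes with at least 2 Ptprc UMIs) held Il1r1 at 5.04 CPM with AF12198, 12.8 in the control tumour and 0 in the ligated and normal pancreas. Vessel cells, where the receptor is also known to be expressed, held 55.3 with AF12198, 89.9 in the control tumour, 121 in the ligated pancreas and 61.5 in the normal pancreas. An Il1r1 UMI was found in 1.81% of AF12198 leukocytes, at a median depth of 3809 UMIs, and in 4 of the 7 AF12198 granule-rich barcodes, at a median of 12124. A barcode with 1 to 3 of these UMIs is not read as expressing the gene, and depth limits what a 0 shows. Il1rap, the co-receptor, was found in 3 insulin-led barcodes, all from the normal pancreas, at 1 or 2 UMIs each.

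The only pair of libraries with at least 5 insulin-led granule-rich barcodes each was the AF12198-treated tumour (6) and the normal pancreas (7), a comparison added after the values were seen. It differs in ligation, tumour and AF12198 together, which cannot be told apart. The 6 barcodes held 48942 UMIs outside the hormone genes with AF12198, 37.5% of them from 1 barcode, and the 7 held 67374 in the normal pancreas, 39.6% from 1 barcode. Levels below are CPM of these, and a gene counts as changed at 2-fold or more with at least 20 UMIs in the 2 groups together. Of 973 such genes, 183 were higher with AF12198 (18.8%) and 161 lower (16.5%), 35.4% in either direction, with a median log2 ratio of 0.082. Cells of 1 library are not replicates, so none of this separates the treatment from the library.

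Most measured genes of the beta cell list were lower in the AF12198 barcodes. Of 19 listed genes, 13 had enough UMIs, 10 of these were lower by 2-fold or more against 16.5% of all genes, and 0 were higher, with a median log2 ratio of -1.44. With each barcode weighted equally 7 of the 13 were lower, against 21.5% of all genes, with a median log2 ratio of -1.09. Slc2a2 gave 3 UMIs (61.3 CPM) with AF12198 and 57 (846 CPM) in the normal pancreas, a ratio of 0.0725 (0.0145 to 0.223). Barcode by barcode this was 0, 1, 2, 0, 0 and 0 with AF12198, and 35, 8, 14, 0, 0, 0 and 0 in the normal ones, so that all normal UMIs lay in the 3 deepest barcodes and the groups overlap at 0.

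Mafa gave 8, 1, 2, 1, 0 and 0 UMIs with AF12198 and 58, 1, 46, 0, 0, 2 and 0 in the normal pancreas, a ratio of 0.154 (0.0774 to 0.281) that rests mainly on 2 normal barcodes. Slc30a8, which the Gcg-led barcodes also held, gave 0, 2, 4, 1, 1 and 0 with AF12198 and 46, 16, 18, 15, 0, 3 and 0 in the normal pancreas, a ratio of 0.112 (0.0472 to 0.230). Ero1lb, an oxidase that helps proinsulin fold, gave 11, 7, 1, 4, 1 and 0 with AF12198 and 114, 23, 29, 8, 0, 7 and 1 in the normal pancreas, a ratio of 0.182 (0.113 to 0.279). Normal barcodes varied widely, with 1 Mafa UMI in that of 18511 UMIs and 15 Slc30a8 UMIs in that of 9162, and the groups overlap for each of these genes. Without the normal barcode of 79262 UMIs only 7 listed genes kept enough UMIs, of which 4 were lower, against 16.4% of all genes in that setting.

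Pdx1, the factor that founds the pancreas and maintains beta cells, had a ratio of 0.243 (0.0456 to 0.840), on 3 UMIs with AF12198 and 17 in the normal pancreas. Papss2, Nkx6-1 and Prlr also passed 2-fold, at 0.367, 0.357 and 0.482, as did Ucn3 and Igf1r at 0.435 each, with intervals that reach 1.13. Trpm5, with too few UMIs to be counted, was at 0 with AF12198 and at 13 in the normal pancreas, all in 1 barcode. G6pc2, Glp1r and Ffar1 were within 2-fold, at 0.516, 0.647 and 0.729. The control tumour barcode, which entered no comparison, held 16 Mafa, 10 Slc2a2, 7 Slc30a8 and 12 Ero1lb UMIs among 21128, and its beta cell list stood at 8427 CPM. The AF12198 barcodes ranged from 747 to 4708 on this scale and the normal ones from 579 to 17815.

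Endocrine transcription factors moved the same way. Of 13 listed, 6 had enough UMIs, and 4 were lower, against 16.5% of all genes, and 0 higher, with a median log2 ratio of -1.33. Neurod1, which helps switch on insulin, gave 1, 1, 11, 2, 5 and 0 UMIs with AF12198 and 36, 4, 43, 8, 2, 5 and 2 in the normal pancreas, a ratio of 0.275 (0.161 to 0.448). Mlxipl, the glucose-responsive factor ChREBP, was found in 3 of 6 AF12198 and 7 of 7 normal barcodes, at a ratio of 0.242 (0.110 to 0.477). Pax6 had a ratio of 0.381 (0.189 to 0.715) and Nkx2-2 0.413, with an interval of 0.136 to 1.07. Isl1 and St18 were within 2-fold. Without the AF12198 barcode of 33637 UMIs 2 of the 6 were lower, against 19.0% of all genes in that setting.

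Granule genes were used to choose these barcodes, so their levels are a description. Chgb gave 289, 49, 21, 6, 271 and 2 UMIs with AF12198 and 55, 23, 11, 15, 14, 0 and 1 in the normal pancreas, which is 13036 and 1766 CPM. Its ratio was 7.38 (6.06 to 9.05), and 2 AF12198 barcodes held most of it. Chga, the other main granin, was close to even, at 8153 CPM with AF12198 and 9900 CPM in the normal pancreas. Resp18, a protein of the granule, had a ratio of 3.83 (2.83 to 5.24) and Pcsk1n, an inhibitor of the convertase PC1/3, 2.31 (1.79 to 2.99). Pcsk1 itself stood at 0.424, Abcc8 at 0.487, Snap25, a fusion protein, at 0.364 and the calcium channel Cacna1d at 0.217. In all, 3 of 18 measured granule genes were higher and 4 lower, shares near those of all genes (18.8% higher and 16.5% lower). Without the normal barcode of 79262 UMIs 5 of 16 were higher, near the share of all genes in that setting (231 of 676, 34.2%).

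B2m, the invariant chain of MHC class I, gave 4, 0, 4, 1, 8 and 4 UMIs in the AF12198 barcodes and 0 in each of the 7 normal ones. Its ratio was 9.64 when 3 counts were taken as the floor of the normal group, and the exact interval starts at 7.17. The control tumour barcode held 9, and of the ligated barcodes the largest held 8 and the others 0. In vessel cells B2m stood at 3206 CPM of all UMIs with AF12198, 3522 in the control tumour, 1602 in the ligated pancreas and 1464 in the normal pancreas, and so differed between libraries outside the islets too. H2-K1, a class I heavy chain, had a ratio of 2.12 (1.26 to 3.61), and 60.0% of its AF12198 UMIs lay in 1 barcode. Of 4 measured class I genes, 2 were higher, against 18.8% of all genes, and 0 lower. Without the normal barcode of 79262 UMIs 1 of the 4 was higher, against 34.2% of all genes in that setting, since H2-K1 then stood at a log2 ratio of 0.97.

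Some genes of the tumour epithelium, duct and acinar lists differed between the groups alongside the beta cell genes. Krt8 and Krt18, keratins of simple epithelia and the 2 measured genes of the tumour epithelium list, had ratios of 4.50 (2.87 to 7.28) and 4.74 (2.20 to 11.3). Krt8 also gave 6, 3, 7, 6, 3, 0 and 1 UMIs in the normal insulin-led barcodes, and 28 in the ligated Gcg-led barcode of 29425 UMIs. The tumour epithelium list of 6 genes summed to 747 to 3984 CPM in the AF12198 barcodes and 262 to 844 CPM in the normal ones. Of its other genes Tff1, Cldn18 and Lgals4 were at 0 in all 6 AF12198 barcodes, and S100a6 gave 8 UMIs there and 0 in the normal ones. Of 2 measured duct markers, Spp1, which encodes osteopontin, was higher at 9.64 (3.37 to 37.8), and Krt7 was within 2-fold. By barcode Spp1 gave 7, 0, 16, 4, 1 and 0 UMIs with AF12198 and 0, 1, 0, 1, 0, 0 and 2 in the normal pancreas. The duct list of 10 genes summed to 320 to 2056 CPM with AF12198 and 96.5 to 1024 CPM in the normal pancreas, with the duct genes Sox9 and Cftr at 0 in every barcode of both groups. Both measured acinar markers were lower, Clps, a cofactor of pancreatic lipase, at 0.212 (0.0537 to 0.610) and Ctrb1, a chymotrypsinogen, at 0.430 (0.123 to 1.23). The acinar list of 16 genes summed to 0 to 1177 CPM with AF12198 and 594 to 9898 CPM in the normal pancreas. The groups overlap in all 3 lists, and the part of these markers in the lower beta cell genes was not tested.

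Nfkb1, a subunit of NF-kB, gave 24, 5, 11, 0, 3 and 0 UMIs with AF12198 and 3, 2, 1, 0, 0, 1 and 0 in the normal pancreas, a ratio of 8.46 (3.77 to 22.3). Its inhibitor Nfkbia, itself a target of the pathway, was even at 0.934 (0.689 to 1.26), and Nfkbiz stood at 1.32 (0.700 to 2.47). Of the 10 genes of the interleukin-1 receptor list 2 had enough UMIs. Il1r1 had a ratio of 0.723 (0.453 to 1.14), within 2-fold, and Irak1, a kinase downstream of the receptor, passed 2-fold at 0.486, on 6 UMIs with AF12198 and 17 in the normal pancreas, with an interval of 0.157 to 1.29. The control tumour barcode held 3 Nfkb1 and 45 Nfkbia UMIs.

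The genes with the largest ratios were mostly leukocyte genes, and 1 barcode carried most of their UMIs. By the rule for named genes these were Cxcl2, S100a9, Srgn, S100a8, B2m, Il1b, Ccl4, Plek, Cxcl3 and Ccl6, all at 0 in the normal barcodes. Cxcl2, a chemokine for neutrophils, gave 59 UMIs with AF12198, of which 93.2% lay in the barcode of 1605 UMIs. The same barcode held 93.5% of S100a9, 91.7% of S100a8 and 70.6% of Il1b, and 61 of the 82 leukocyte marker UMIs of the 6 barcodes. It held 78 Ins1, 175 Ins2 and 12 granule UMIs, with 0 for Pcsk2, Neurod1 and Mafa. The other 5 insulin-led AF12198 barcodes held 1 Il1b UMI each. The control tumour barcode held 41 Il1b, 32 Cxcl2 and 31 leukocyte marker UMIs. What part mixed droplets or free RNA have in this was not tested.

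Without that AF12198 barcode the counts over all genes were nearly the same, at 178 higher and 159 lower, and the beta cell list was unmoved at 10 of 13 lower. Of the NF-kB list 1 of 3 was then higher, and of class I genes 1 of 3, against 18.6% of all genes.

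The genes with the lowest ratios were chosen by that rule for being low with AF12198, and all were at 0 there. Of the 10, Pappa2 alone reached 20 UMIs in the 2 groups together. Pappa2, a protease that frees insulin-like growth factors, gave 44 UMIs in the normal pancreas, of which 97.7% lay in 1 barcode, and Cox6a2, a subunit of cytochrome oxidase, gave 17, with 94.1% in 1. Usp29 gave 16 in 5 of 7 normal barcodes, Slc44a1, a choline transporter, 15 in 7 of 7, Ky 14 in 5 and Alkbh1 12 in 6. Fam151a (14 UMIs), Zc3h3 (12) and B930036N10Rik (11) were found in fewer.

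Alpha cell genes did not move together in these insulin-led barcodes. Of 4 measured, Cltrn, an amino-acid transport partner, was higher at 3.34 (2.31 to 4.91), and the imprinted Peg3 and Ttr were lower at 0.251 (0.182 to 0.341) and 0.386 (0.232 to 0.619). Ttr turned the other way, to a log2 ratio of 0.081, when each barcode was weighted equally.

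Genes of protein folding were close to even. Of 10 measured genes of protein folding in the endoplasmic reticulum and its stress response, 1 was higher, against 18.8% of all genes, and 0 lower, with a median log2 ratio of 0.14. That one was Atf4, at 2.25 (1.29 to 4.02), which fell just short of 2-fold, at a log2 ratio of 1.00, without the normal barcode of 79262 UMIs, while Hspa5, the main chaperone, stood at 0.865 (0.634 to 1.17). Immediate-early genes, which tissue digestion is known to induce, split, with 3 of 10 higher, against 18.8% of all genes, and 1 lower. The number higher was 1 of 10 with each barcode weighted equally, against 29.4% of all genes in that setting. It was 2 of 10 without the normal barcode of 79262 UMIs, against 34.2% of all genes there. Jun had a ratio of 2.02 (1.55 to 2.64), or 1.02 on the log2 scale, and was under 2-fold in both settings, at log2 ratios of 0.64 and 0.82. Dnajb1 had a ratio of 6.42 (2.61 to 19.0) and Fos one of 0.204 (0.143 to 0.285). By barcode Dnajb1 gave 2, 16, 0, 0, 8 and 2 UMIs with AF12198, and all 6 of its normal UMIs lay in 1 barcode. Atf3 stood at 3.06 (1.33 to 7.63), with 80.0% of its AF12198 UMIs in 1 barcode, and was not higher without the barcode of 33637 UMIs, at a log2 ratio of -0.030. The cell cycle, calcineurin and NFAT, Reg family and delta cell lists had 0 genes with enough UMIs to compare.

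**Figure D4:**
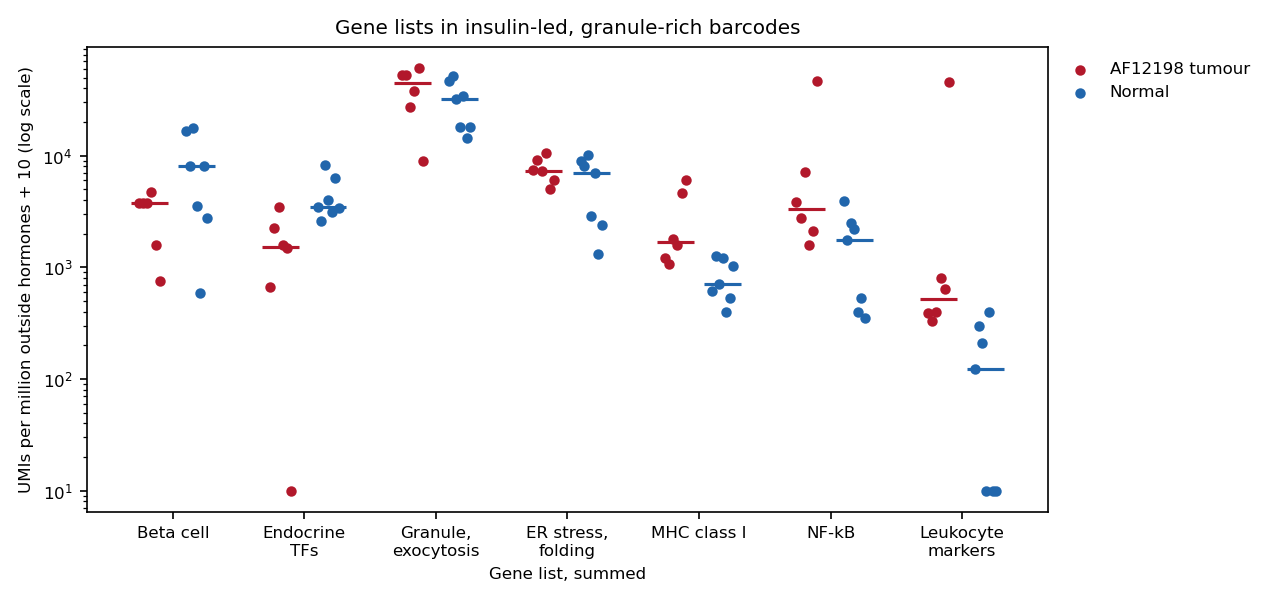
Summed level of 7 gene lists in each insulin-led granule-rich barcode of the AF12198-treated tumour (red, 6 barcodes) and the normal pancreas (blue, 7), as CPM outside the hormone genes plus 10 on a log axis, with bars at the medians. The beta cell and transcription factor medians are lower with AF12198, the MHC class I median is higher, the groups overlap in every list, and a single red point stands far above the rest for NF-kB genes and leukocyte markers.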

How the data were processed

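The deposited matrices hold UMI counts per gene and barcode, whole numbers made by the authors. The submitters' processing notes name Cell Ranger 6.0.0 and build mm10. Neither the annotation release nor how cells were called is stated. Tissue was digested with collagenases and sequenced with 10x Genomics 3' v3 chemistry, per the labels' protocols. Total depth was 5360054 to 96886820 UMIs per library, and the lowest barcode held 760 UMIs in the control tumour and 500 elsewhere.

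Computed here, in Python 3.11.15 with NumPy 2.4.6, SciPy 1.17.1 and pandas 2.3.3, were exact binomial (Clopper-Pearson) intervals for shares, exact Poisson intervals for levels and exact conditional intervals for ratios. Levels are CPM over the UMIs outside the 7 hormone genes unless stated. Log2 ratios used a pseudocount of 1 CPM. Comparisons were planned for groups of at least 20 barcodes. No pair of libraries or hormone classes reached this, so none was made as planned. The granule split and the AF12198 and normal comparison, with at least 5 barcodes each, were added after values were seen. The members and gene lists were chosen with earlier results of these data known.

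Named genes were the hormones, up to 4 members each way of each list, and, over all genes at 50 CPM or more in 1 group with an interval beyond 1.5-fold, the 10 highest and 10 lowest ratios, without Xist, mitochondrial and ribosomal protein genes. Ero1b of the list was read under its older symbol Ero1lb. No doublet caller was run, and the caps of the rule stood in for it. Between 1 and 129 barcode sequences were shared between pairs of libraries, 2 of them those of members. The calculation was tested on simulated data, where at a depth near the real one many lower genes fell under the 20-UMI filter. Promoter windows came from RefSeq on GRCm38.p6, and Ins2 had none.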

Additional observations from a re-analysis of the deposited data

How the results depend on the processing

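No paired analysis was possible because each group was 1 library. The planned comparisons among the other libraries and hormone classes were not run, since they held too few barcodes. The levels given for Gcg-led and insulin-led barcodes are descriptions.

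The number of normal pancreas barcodes rested on the rule. From 69 it became 343 at a hormone share of 2%, 4 at 10%, 8 at 1000 UMIs or more and 50 with caps also on endothelial, fibroblast and pericyte genes. Its insulin-led barcodes became 4 at 10% and 7 at 1000 UMIs, from 68, and its Gcg-led one became 0 at 10%. The insulin-led ligated barcode became 0 at 10%, and the control tumour barcode 0 with the added caps. The granule-rich counts were 7, 1, 4 and 9 at 5 granule UMIs and 6, 1, 4 and 8 at 20, for AF12198, control tumour, ligated and normal.

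In the AF12198 and normal comparison, genes higher numbered 183, and 286 with each barcode weighted equally, 2766 of 10566 with no filter on UMIs, and 118 without barcodes of mixed hormones. Genes lower numbered 161, and 3970 with no filter. The causes were not tested, except that no filter adds genes of few UMIs and leaving out barcodes lets fewer genes be tested. Without the normal barcode with the most UMIs, 231 of 676 were higher and the median over all genes moved to 0.32. Of single genes, Ttr turned to a log2 ratio of 0.081 with barcodes weighted equally, and Atf3 to -0.030 without the AF12198 barcode with the most UMIs and -0.18 without mixed hormones. In all, 780 values under the alternatives stayed as they were, 161 moved and 3 turned. Depth limits every 0 in barcodes of low UMI total.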
